A study of Schizosaccharomyces pombe with 4 samples.

Results

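Ribosomal protein paralogs are genes that code for the same or nearly the same protein of the ribosome. The 10 genes described here are *rpl301* and *rpl302*, *rpl401* and *rpl402*, and *rpl801* and *rpl802* of the large subunit, with *rps001* and *rps002*, and *rps601* and *rps602* of the small subunit. They were taken by their systematic names from the 5129 mRNAs of a total RNA-seq table of fission yeast (*Schizosaccharomyces pombe*), and form 5 sets of 2 genes each. All 10 were found, and all 10 passed the filter on reads. *rpl803*, the further gene of the *rpl8* set, is given beside them.

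Total RNA was sequenced from 2 biological replicates of the strain YAM2394, labelled WT, and 2 of the strain YAM2397, labelled *exo2*Δ. Both strains carry the markers ade6-M210, ura4-D18 and leu1-32 and the h+ mating type, and in YAM2397 the kanMX4 cassette replaces *exo2*. Each genotype is therefore 1 strain, purchased from Bioneer, and RNA came from exponentially growing cultures in rich medium. The comparison asks which RNAs depend on Exo2, and the values are densities: reads on a feature divided by its length (tag/nt), normalized by the authors on sn(o)RNA levels, which such a scaling takes as equal in both strains.

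Ribosomal protein mRNAs are among the most abundant messengers of a growing yeast cell, and their synthesis follows growth rate and nutrient signals such as the TOR pathway. In fission yeast many of these genes are duplicated, and most of them have a short promoter element, the HomolD box, where genes of other kinds have a TATA box. Exo2 is the cytoplasmic 5′-3′ exoribonuclease of fission yeast, called Xrn1 in budding yeast. It degrades RNAs whose cap has been removed.

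In 4 of the 5 sets the paralogs differed little in protein and more in coding sequence, and in the *rps0* set they differed in both. *rpl301* and *rpl302* encode a large subunit protein next to the peptidyl transferase centre, of 388 residues with 1 substitution between the paralogs. *rpl401* and *rpl402* encode a protein that lines the exit tunnel, of 363 residues with 11 substitutions. The 3 genes of the *rpl8* set encode the same large subunit protein of 253 residues with 0 substitutions. The gene named *rpl8* alone (SPBC29A3.04) encodes another protein, 17.6% identical, and was left out of the set. The *rps0* proteins of the small subunit have 292 and 287 residues with 50 substitutions, at 79.9% identity in protein and 77.5% in coding sequence. *rps601* and *rps602* encode the small subunit protein that is phosphorylated downstream from TOR, of 239 residues with 3 substitutions.

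The first 60 coding bases of 3 sets are shown because these differences decide which reads can be assigned to 1 paralog. Capitals mark the bases that differ between the paralogs of the set. They were read 5′ to 3′ from RefSeq's annotation of ASM294v3, at chrI:1756109-1756168 (+) for *rpl301*, chrI:4918932-4918991 (−) for *rpl302*, chrI:4251359-4251418 (−) for *rpl801*, chrII:1726677-1726736 (+) for *rpl802*, chrI:187504-187563 (−) for *rps601* and chrI:3319260-3319319 (+) for *rps602*.
rpl301: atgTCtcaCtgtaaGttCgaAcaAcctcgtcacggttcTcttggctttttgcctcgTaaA
rpl302: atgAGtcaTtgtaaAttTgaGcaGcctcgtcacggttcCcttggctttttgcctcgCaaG
rpl801: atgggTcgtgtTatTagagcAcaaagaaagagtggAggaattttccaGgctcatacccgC
rpl802: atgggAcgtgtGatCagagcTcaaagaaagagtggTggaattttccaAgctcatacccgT
rps601: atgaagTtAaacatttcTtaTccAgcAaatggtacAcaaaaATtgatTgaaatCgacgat
rps602: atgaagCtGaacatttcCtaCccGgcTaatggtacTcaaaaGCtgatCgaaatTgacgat

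The start of the *rpl3* coding sequences holds 10 differing bases, but an identical run of 848 nt follows elsewhere in the 1167 nt coding sequences, which are 96.3% identical over their whole length. Of the 50 nt windows of each gene as annotated in ASM294v3, 33.2% of *rpl301* and 43.9% of *rpl302* occurred once in the genome. This share was 92.8% for *rpl802*, 93.0% for *rpl803* and 100% for the 7 other members. The density of the *rpl3* genes may therefore rest on fewer positions if only uniquely mapped reads were counted, as the study states for a scatter plot of its densities. The windows are exact and single, whereas reads were mapped in pairs with mismatches allowed. The share is thus only a guide to where reads could be assigned.

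The promoters of the members share a sequence that played no part in their choice. The HomolD core (the letters CAGTCAC, searched on both strands) occurred within 250 bases before to 50 after the annotated gene start in 10 of 10 members. It occurred in 91.2% of the 137 promoters of ribosomal protein genes and in 4.72% of all 5106 promoters. The HomolE core (ACCCTAC, both strands, no letters shared with the HomolD matches) occurred in 2 members, *rpl301* and *rps602*, in 32.1% of ribosomal protein promoters and in 2.66% of all. The first base of the HomolD core lay between 49 and 66 bases before the gene start of ASM294v3. The deposited gene lines start further upstream, and those of *rpl301*, *rpl302*, *rpl401*, *rpl402*, *rps601* and *rps602* include the core.

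The windows around the HomolD core are shown for the 2 sets whose paralogs differed most in their response. Capitals mark the core, which reads GTGACTG where it lies on the other strand, as in both *rps6* genes. The windows lie at chrI:4251478-4251506 (−) for *rpl801*, chrII:1726588-1726616 (+) for *rpl802*, chrI:187617-187645 (−) for *rps601* and chrI:3319180-3319208 (+) for *rps602*, in ASM294v3.
rpl801: atgaccgaaaaCAGTCACattttacaaca
rpl802: ttacacaaaagCAGTCACgagtacttttc
rps601: tatcccaaattGTGACTGctcttagagga
rps602: aatcgaacattGTGACTGtttaaaaaagt

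The number of reads behind each density was recovered from the table, because density times length was a whole multiple (within 0.001) of 1 step per library for 100% of nonzero values. The 4 libraries hold between 46964618 and 51019820 reads on features, of which rRNA took 28.9% to 36.1%. Each member received between 12490 and 125396 reads in a library, so that counting error was at most 0.895% of a value and the spread between replicates was the larger one. With *exo2* deleted, its line (SPAC17A5.14) would hold few reads. It held 2485 and 2181 reads in the WT libraries, and 2426 and 2382 in those labelled *exo2*Δ. Its density was 0.488 and 0.458 tag/nt in the WT libraries and 0.663 and 0.636 in those labelled *exo2*Δ. This line does not show the labelled deletion, and the reason was not tested. The authors report a check of both strains by genomic PCR and northern blot. By the deposited scaling, 84.2% of all features tested were higher in the libraries labelled *exo2*Δ, with a median log2 ratio of 1.08 over mRNAs. The directions below are drawn from the labels, and "without Exo2" stands for the libraries labelled *exo2*Δ.

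In WT the members were among the most abundant mRNAs, from rank 32 to rank 251 of 5129 by density. *rpl402* was at the highest density, 83.8 ± 1.09 tag/nt (mean ± SD, n = 2 here and below), followed by *rps602* at 70.2 ± 1.90, *rpl801* at 61.8 ± 0.751, *rps601* at 49.2 ± 0.237 and *rps002* at 41.9 ± 0.806. *rpl301* followed at 29.7 ± 0.482, *rps001* at 27.5 ± 0.635, *rpl802* at 22.5 ± 0.896, *rpl401* at 14.6 ± 0.786 and *rpl302* at 13.6 ± 0.454. No neighbours in this order overlapped between the WT libraries, although *rpl401* and *rpl302* were separated by little (14.03 tag/nt in the lower *rpl401* library and 13.96 in the higher *rpl302* library). This order is that of gene lines, and the length used moved it. Per nt of coding exon *rps601* had rank 2 in place of rank 4. Density over the share of unique windows, which assumes no reads on the other windows, put *rpl301* first at 89.5 tag/nt and *rpl302* at 31.1, rank 7. The share is that of the ASM294v3 gene, which for *rpl301* starts at chrI:1756085, while the deposited line starts at chrI:1756016. Because 2 lengths are mixed in this value, the place of *rpl301* above *rpl402* (83.8 tag/nt) is not settled. In the libraries labelled *exo2*Δ, *rpl402* was still first on gene lines, and *rpl301* and *rps001* overlapped at 18.5 ± 1.22 and 18.1 ± 0.238 tag/nt.

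**Figure D1:**
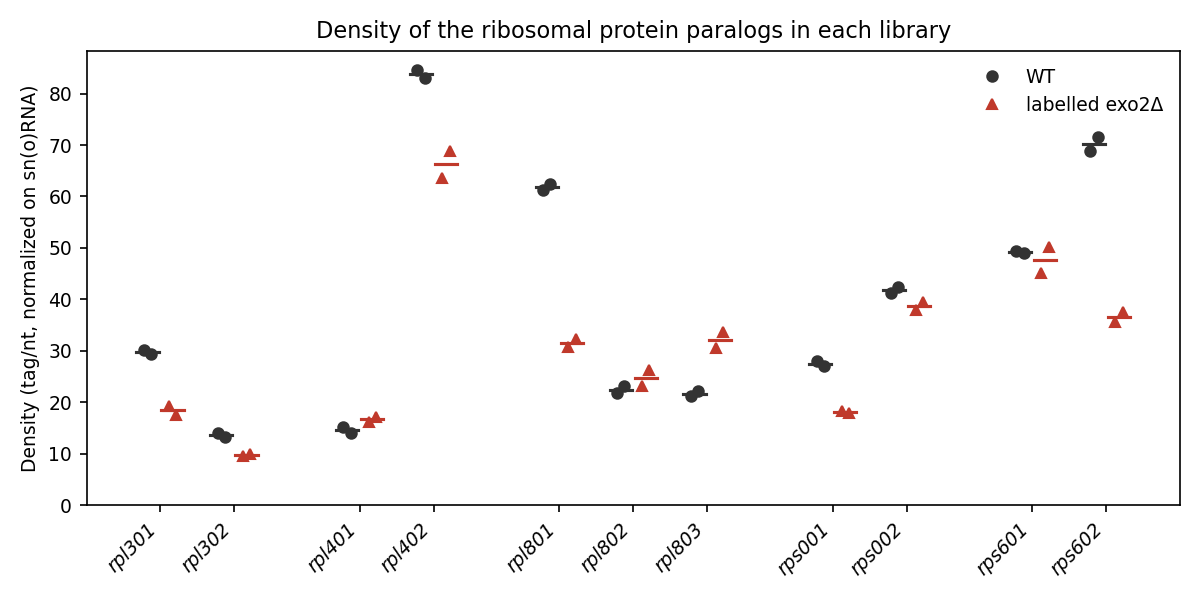
Density (tag/nt, linear axis from 0) of the 10 paralogs and *rpl803* in each library, with circles for WT and triangles for libraries labelled *exo2*Δ, and a bar at the mean of the 2 libraries. *rpl801* and *rps602* lie near 62 and 70 tag/nt in WT and between 30.8 and 37.6 in the libraries labelled *exo2*Δ, while *rps601* overlaps between the groups.

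Without Exo2, by the labels, *rpl301*, *rpl302*, *rpl402*, *rpl801*, *rps001* and *rps602* fell. *rpl401* rose slightly with the sn(o)RNA normalization and was lower with 3 other scalings given below, and *rpl802*, *rps002* and *rps601* did not pass the test. In all 5 sets the change of the ratio between the paralogs passed its test, as it did in 51 of the 55 other ribosomal protein pairs. The call of *rpl301*/*rpl302* did not hold with every library left out. Less RNA in each cell and fewer cells that hold it cannot be told apart in bulk RNA. The test was limma on log2 density across 8826 features, with Benjamini-Hochberg adjusted p-values called under 0.05 and fold changes as log2 ratios of the libraries labelled *exo2*Δ over WT with their SE. With 2 libraries a group, an exact permutation test of a single gene cannot give a two-sided p under 0.333, so the calls rest on the variance model across features.

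In the *rpl3* set, *rpl301* (SPAC17A5.03, chrI:1756016-1757330 of ASM294v2, + strand, as are all gene coordinates below) was at 30.1 and 29.4 tag/nt in WT and at 19.3 and 17.6 in the libraries labelled *exo2*Δ. The groups did not overlap, and *rpl301* fell by 0.69 on the log2 scale (SE 0.07, adjusted p = 6.33e-05 by limma). *rpl302* (SPAPB8E5.06c, chrI:4917555-4919099, − strand) was at 13.96 and 13.32 tag/nt in WT, and at 9.49 and 9.87 without Exo2. It fell by 0.49 (SE 0.06, limma adjusted p = 0.000185), also with no overlap. *rpl301* made up 68.6% ± 0.368 of the summed density of the set in WT and 65.6% ± 2.12 in the libraries labelled *exo2*Δ. This change of the ratio of *rpl301* to *rpl302* was small, at -0.19 on the log2 scale (SE 0.07, limma adjusted p = 0.0392 over 60 paralog pairs), and its call was lost without WT replicate 2 (adjusted p = 0.0575) and without *exo2*Δ replicate 2 (-0.10, adjusted p = 0.0841, about 2 times smaller than with all libraries).

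In the *rpl4* set the paralogs moved in opposite directions under the deposited scaling, from very different levels. *rpl401* (SPBC1711.06, chrII:2143012-2144391, + strand) was at 15.14 and 14.03 tag/nt in WT, and at 16.2 and 17.2 in the libraries labelled *exo2*Δ. It rose by 0.20 on the log2 scale (SE 0.07, 95% interval 0.04 to 0.36, limma adjusted p = 0.0268). This call was lost without WT replicate 2 (adjusted p = 0.205), without *exo2*Δ replicate 2 (adjusted p = 0.111) and with variances that do not follow the mean (adjusted p = 0.112). *rpl402* (SPBP8B7.03c, chrII:3636475-3637726, − strand), the most abundant member, was at 84.6 and 83.0 tag/nt in WT and at 63.7 and 68.9 without Exo2. It fell by 0.34 (SE 0.07, limma adjusted p = 0.00290). The share of *rpl401* in the summed density of the set was 14.8% ± 0.517 in WT and 20.1% ± 0.256 in the libraries labelled *exo2*Δ, a ratio change of 0.54 (SE 0.05, limma adjusted p = 0.000113).

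The *rpl8* set, whose 3 genes code for an identical protein, held the member with the largest fall. *rpl801* (SPAC1F7.13c, chrI:4250595-4251468, − strand) was at 61.3 and 62.4 tag/nt in WT and at 30.8 and 32.4 in the libraries labelled *exo2*Δ. It fell by 0.97 on the log2 scale (SE 0.06, limma adjusted p = 9.82e-06), to 0.510 of its WT mean. *rpl802* (SPBC2F12.07c, chrII:1726632-1727577, + strand) was at 21.8 and 23.1 tag/nt in WT and at 23.2 and 26.3 without Exo2. Its groups nearly touched, and its log2 ratio of 0.14 did not pass the test (SE 0.08, 95% interval -0.05 to 0.32, limma adjusted p = 0.133), although it did without *exo2*Δ replicate 1 (0.23, limma adjusted p = 0.0319). Without *exo2*Δ replicate 2 the log2 ratio was 0.05 (limma adjusted p = 0.519).

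*rpl803* (SPBC839.04, chrII:601209-602186, + strand), at 21.2 and 22.2 tag/nt in WT and 30.6 and 33.6 in the libraries labelled *exo2*Δ, rose by 0.56 under the deposited scaling (SE 0.07, limma adjusted p = 0.000200), a rise smaller than the shift of 1.17 that TMM scaling brings. *rpl801* thus made up 58.3% ± 0.550 of the density of the 3 genes in WT and 35.7% ± 0.895 in the libraries labelled *exo2*Δ, where *rpl803* reached 36.3% ± 0.169. The ratio of *rpl801* to *rpl802* changed by -1.11 (SE 0.05, limma adjusted p = 1.82e-05), from 2.75 to 1.28. The ratio of *rpl801* to *rpl803* changed by -1.53 (SE 0.04, limma adjusted p = 8.34e-06), from 2.85 to 0.984. The summed density of the set was 106.02 ± 2.29 tag/nt in WT and 88.4 ± 5.39 in the other group, a ratio of 0.834.

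The *rps0* paralogs encode a small subunit protein related to the laminin receptor precursor of animals, and *rps001* is the only member with 2 coding exons. *rps001* (SPBC685.06, chrII:2778868-2779942, + strand) was at 27.98 and 27.08 tag/nt in WT and at 18.2 and 17.9 in the libraries labelled *exo2*Δ. It fell by 0.61 on the log2 scale (SE 0.06, limma adjusted p = 5.54e-05). *rps002* (SPAPJ698.02c, chrI:4036533-4037624, − strand) was at 41.3 and 42.5 tag/nt in WT and at 37.9 and 39.5 without Exo2. Its groups did not overlap, but the log2 ratio of -0.11 did not pass the test (SE 0.06, 95% interval -0.26 to 0.03, limma adjusted p = 0.120). By gene lines, the less abundant paralog of this set had the lower log2 ratio, while in the 4 other sets it was the more abundant one. By coding lines the more abundant paralog had the lower log2 ratio in 3 of the 5 sets, since *rps601* was then above *rps602* in WT (log2 ratio 0.13). The ratio of *rps001* to *rps002* changed by -0.49 (SE 0.05, limma adjusted p = 0.000291).

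In the *rps6* set, *rps601* (SPAC13G6.07c, chrI:186314-187683, − strand) was at 49.4 and 49.0 tag/nt in WT and at 45.1 and 50.2 in the libraries labelled *exo2*Δ. These groups overlapped, and the log2 ratio was -0.05 (SE 0.07, 95% interval -0.22 to 0.13, limma adjusted p = 0.550). *rps602* (SPAPB1E7.12, chrI:3319189-3320060, + strand) was at 68.8 and 71.5 tag/nt in WT and at 35.5 and 37.6 without Exo2. It fell by 0.94 (SE 0.07, limma adjusted p = 1.34e-05), to 0.521 of its WT mean. The ratio of *rps601* to *rps602* changed by 0.89 (SE 0.05, limma adjusted p = 2.34e-05), from 0.701 to 1.30. The order of these paralogs in WT depended on the region counted: per nt of coding exon, *rps601* was at 93.2 ± 0.414 and *rps602* at 84.9 ± 2.30 tag/nt, whereas the gene line of *rps601* is longer (1370 against 872 nt).

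**Figure D2:**
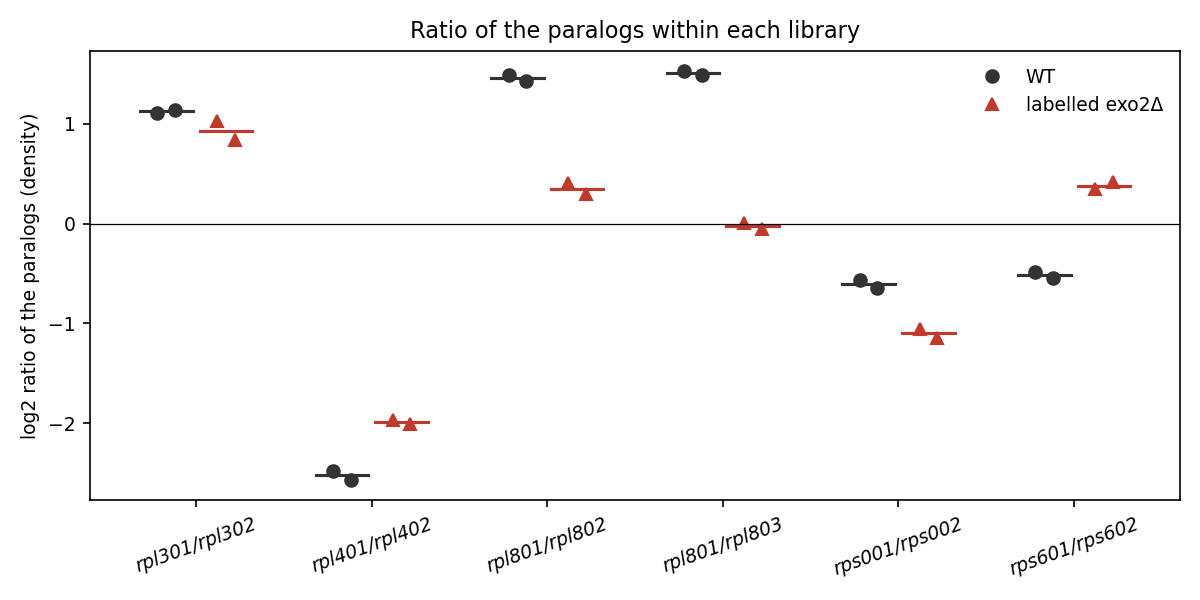
log2 ratio of the densities of 2 paralogs within each library, with circles for WT, triangles for libraries labelled *exo2*Δ and a bar at the mean. The value 0 stands for equal density, and the ratio of *rpl801* to *rpl803* moves from 1.51 to -0.02 while that of *rps601* to *rps602* moves from -0.51 to 0.38.

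These counts stand against a table in which most features were higher without Exo2. Of all 8826 features tested, 84.2% were called higher and 4.23% lower, against 1 and 6 of the 10 members. Both libraries labelled *exo2*Δ lay above both WT libraries for 88.5% of the features tested and below them for 5.88%, against 2 and 7 members. The median log2 ratio was -0.42 over the members, -0.18 over the 137 ribosomal protein genes, 1.08 over mRNAs and 1.23 over all features.

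Among the ribosomal protein genes, listed by symbol and RefSeq product, 34 were called higher, 69 lower and 34 neither. Of the 127 outside the members, 63 (49.6%) were called lower and 33 (26.0%) higher, so that the members' 6 of 10 lay near the share of their class. The large subunit genes gave 42 of 82 lower and the small subunit genes 27 of 55. The lowest log2 ratios outside the members were those of *rps1201*, a small subunit protein gene (75.3 ± 1.13 tag/nt in WT and 37.7 ± 1.97 in the libraries labelled *exo2*Δ), and *rpp102*, a gene of the acidic stalk proteins (-0.94). The highest were those of the large subunit protein genes *rpl3002* (1.39) and *rpl35A02* (1.14). By distance of the log2 profile over the 4 libraries, *rps2302*, *rps13* and *rpl26* were most like the mean of the members (distances 0.0390, 0.0487 and 0.0587), with log2 ratios of -0.41, -0.42 and -0.40.

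**Figure D3:**
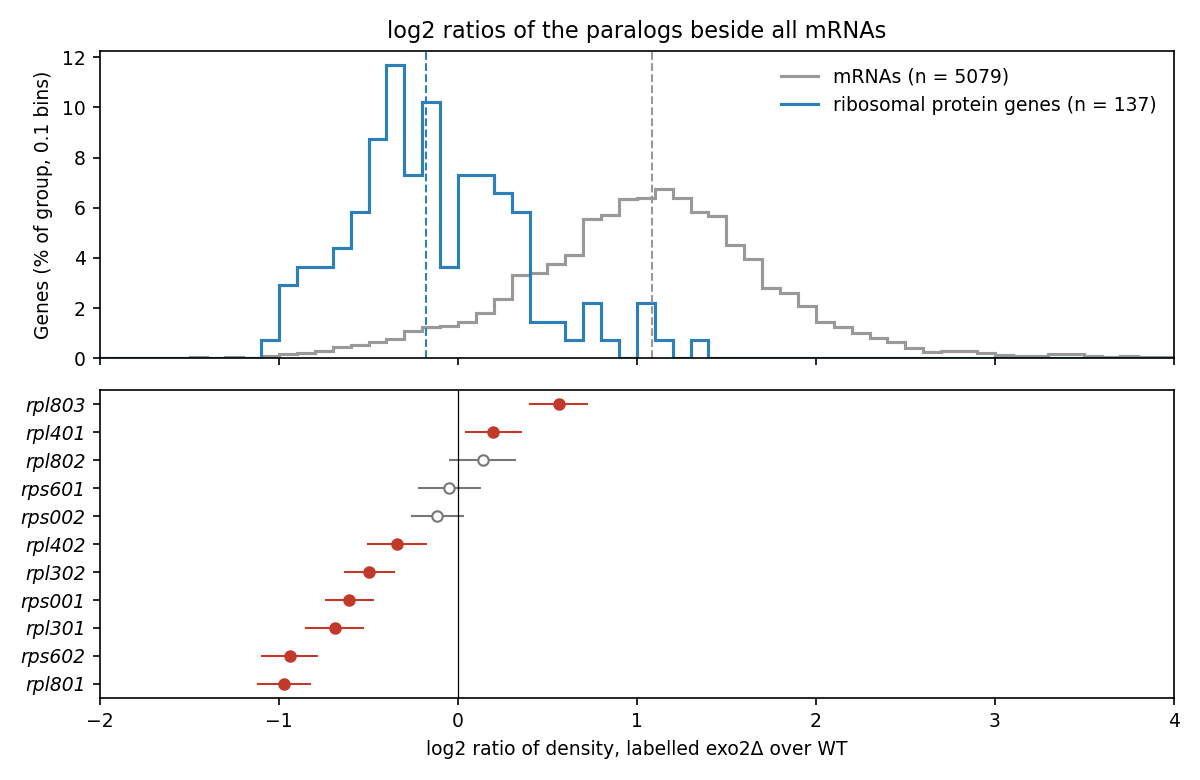
Top, share of genes in bins of 0.1 of the log2 ratio (libraries labelled *exo2*Δ over WT) for 5079 mRNAs and 137 ribosomal protein genes, with dashed lines at the medians of 1.08 and -0.18, and 36 mRNAs beyond the right edge. Bottom, the log2 ratio of each paralog with its 95% interval from limma, filled where the adjusted p is under 0.05, from -0.97 for *rpl801* to 0.56 for *rpl803*, all below the median of mRNAs.

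The direction of a single member depended on how the libraries were scaled. On the total of reads on features, each log2 ratio was 0.49 lower, and with factors that centre most features (TMM, the trimmed mean of M-values, or the median of ratios) 1.17 and 1.20 lower, so that *rpl401* and *rpl802* turned negative. All 10 members were then called lower, as were 114 of the ribosomal protein genes with total reads and 132 with either centring. The 2 centrings take most features as unchanged, whereas 84.2% were called higher under the deposited scaling. The study describes sn(o)RNAs as insensitive to Exo2 and mRNAs as accumulating without it. Which scaling is right was not tested here. The order of the members does not depend on the scaling. Relative to the median mRNA, their log2 ratios lay between -2.05 (*rpl801*) and -0.89 (*rpl401*), and each fell within the lowest 10.2% of mRNAs. All ribosomal protein genes took 21.3% and 21.7% of the reads on mRNAs in WT, and 13.8% and 14.6% in the libraries labelled *exo2*Δ. The members took 2.05% and 2.07% of mRNA reads in WT, and 1.18% and 1.20% in the libraries labelled *exo2*Δ.

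**Figure D4:**
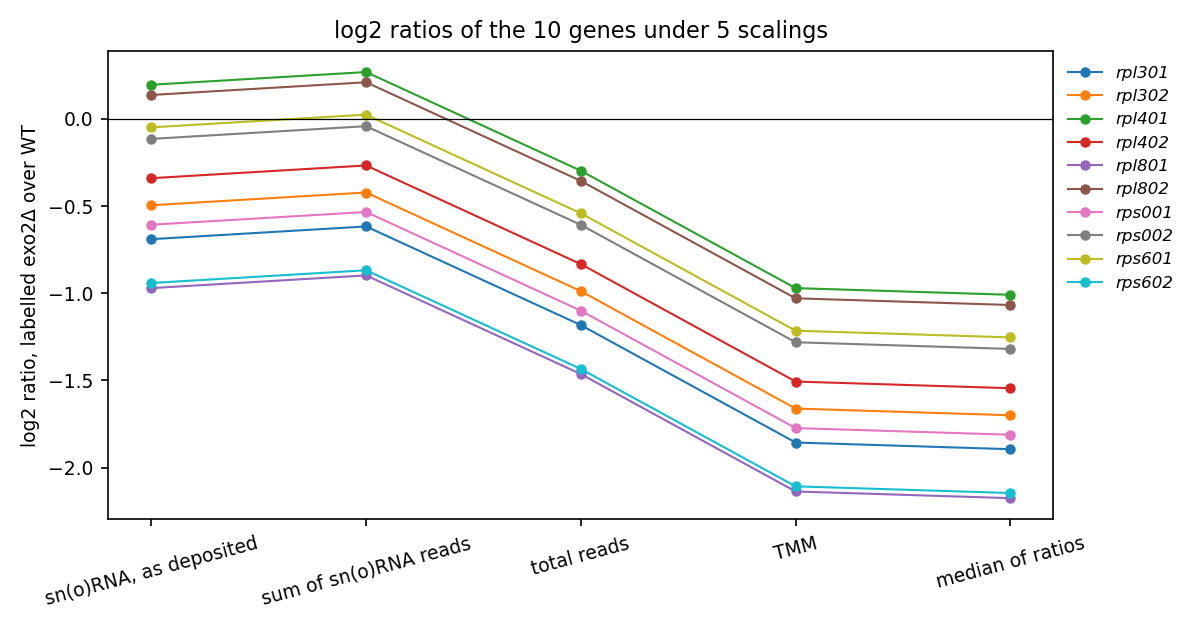
log2 ratio (libraries labelled *exo2*Δ over WT) of each of the 10 members under 5 scalings, the deposited one at the left, with lines that join the values of a gene. The order of the genes is the same in each column, and *rpl401* and *rpl802* are above 0 with the sn(o)RNA scalings and below 0 with the 3 others.

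A ratio of paralogs within a library holds no scaling, and here the share called was large among ribosomal protein genes in general. Of 60 paralog pairs of this class, 93.3% changed their ratio with an adjusted p under 0.05, which includes all 5 sets of members and 51 of the 55 other pairs. The median size of the change was 0.54 for the 5 sets and 0.55 for the 55 other pairs. *rpl801*/*rpl802* ranked 8 and *rps601*/*rps602* ranked 14 by size, while *rpl301*/*rpl302* ranked 53. The 3 largest among genes outside the members were *rpl3001*/*rpl3002* at -1.59 (SE 0.05, limma adjusted p = 9.34e-06), *rps1201*/*rps1202* at -1.35 (SE 0.06, limma adjusted p = 1.82e-05) and *rpl3401*/*rpl3402* at -1.32 (SE 0.08, limma adjusted p = 2.72e-05). *rpl801*/*rpl803*, counted here with the other pairs, ranked 2. Over all pairs, the paralog at the higher density in WT had the lower log2 ratio in 42 of 60, and also in 42 when WT replicate 1 set the order and WT replicate 2 the ratio. The count was 37 of 60 on coding lines and 42 with density over the share of unique windows. Coding lines count a read that touches several exons more than once, so the 37 does not reflect length alone. Each gene at position 01 enters all pairs of its set, so the pairs are not independent.

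Nearly all reads of the members were counted on their coding lines, and the remainder of the gene line changed by different factors in the paralogs. A read that lies only partly on a coding exon can be counted on the coding line, as for *rps001* below. The remainder may thus miss reads that reach beyond the exon, so its density is read here only within a gene. The density over the rest of the gene line, for reads that the coding line does not hold, was 0.0909 and 0.116 tag/nt in WT and 0.774 and 0.856 in the libraries labelled *exo2*Δ for *rpl401*, 7.89 times higher by the means. For *rps601* it was 0.479 and 0.420 in WT, and 1.64 and 1.86 without Exo2 (3.90 times higher). For *rps002* it was 0.992 and 0.961 in WT, and 2.203 and 2.157 without Exo2 (2.23 times). For *rpl803* the means were 0.468 and 1.76 tag/nt (3.76 times). In these 4 genes both libraries labelled *exo2*Δ lay above both WT libraries. On whole feature lines they did so for 88.5% of all features tested, and no share was taken over the remainders of other genes. For *rpl302*, *rpl402* and *rpl801* both libraries labelled *exo2*Δ lay below both WT libraries, as they did for *rpl301* on 0 to 4 reads. On whole feature lines this was so for 5.88% of features. The remainders held 105 to 165 reads in a library for *rpl302*, 55 to 111 for *rpl402* and only 8 to 24 for *rpl801*. The ratios of the 4 genes hold the scaling of the libraries. With TMM they were 3.51 for *rpl401*, 1.74 for *rps601*, 1.68 for *rpl803* and 0.994 for *rps002*, and with the median of ratios that of *rps002* was 0.968, so that its rise depended on the deposited scaling.

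The 5 other members with a ratio lay between 0.646 (*rpl801*) and 1.02 times (*rpl802*) their WT mean. *rpl301* had between 0 and 4 such reads in a library, too few for a ratio. *rps001* gave no value, because reads that touch both of its exons enter both coding lines. No test was fitted to these remainders, which hold between 0 and 1055 reads per gene and library. With summed coding exon lines in place of gene lines, the calls of the members stayed at 1 higher and 6 lower.

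**Figure D5:**
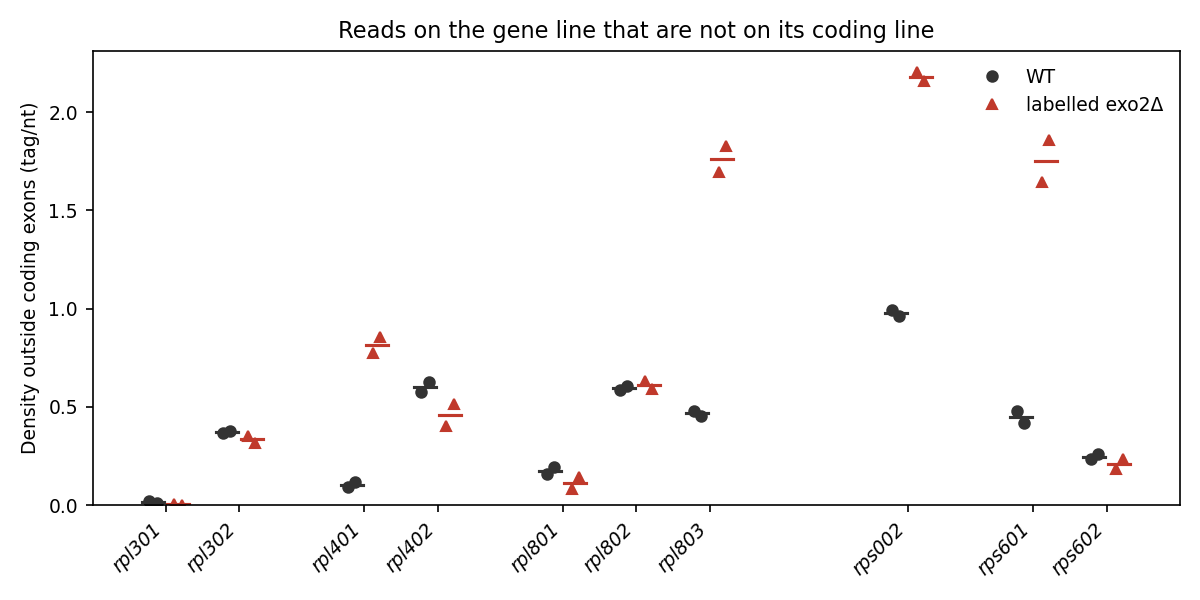
Density (tag/nt, linear axis from 0) of the reads on a gene line that its coding line does not hold, over the length outside coding exons, for 9 members and *rpl803*, with circles for WT, triangles for libraries labelled *exo2*Δ and a bar at the mean. *rpl401*, *rpl803*, *rps002* and *rps601* are higher without Exo2 under the deposited scaling (*rps002* is not with TMM, at 0.994 of WT), and the others lie between 0 and 0.63 tag/nt in every library.

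Other features of the table overlapped 2 members. The noncoding unit novelncTU_107 lies opposite *rpl302* over 285 nt, and held at most 4 reads in any library. *gcv2* (SPAC13G6.06c) shares 45 nt with the end of *rps601* on the same strand, at chrI:182337-186358, and held between 7132 and 8265 reads over its whole length. The part of *gcv2* in the reads outside the coding exon of *rps601* was not tested.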

How the data were processed

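The authors mapped stranded, rRNA-depleted, paired reads of 50 nt with TopHat on ASM294v2 and deposited a signal, the tag density per feature (reads per nt, scaled on sn(o)RNA levels), for each library. The counting tool is not given in the sources used here. The deposited sums of both replicates of a genotype were not used.

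Densities were taken as log2(density + 1.55e-04), and 8826 of 9139 features with at least 10 reads over the 4 libraries were fitted with limma 3.58.1 in R 4.3.3, with 1 term for genotype and variances following the mean. This fit did not use the coding exon lines. Fold changes of low features are understated on this scale. Reads recovered from density steps served the filter, depths and scalings, and no count model was fitted. Paralog pairs were fitted as log2 ratios within a library, without a variance trend. The fits were also run on simulated data in which a minority of features and pairs changed. Most were called here, so that run does not cover this setting.

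Symbols, sequences and promoters came from RefSeq (ASM294v3), matched by locus tag for 5111 of 5129 mRNAs. The coding exons of the 10 members have the same coordinates in both builds, while gene ends differ. Of 141 genes with an rpl, rps or rpp symbol, 4 with an RNase P or MRP product were left out; with them, 37 were called higher and 70 lower. Named outside the members were the 2 highest, 2 lowest and 3 most like ribosomal protein genes, the 3 largest pair changes and overlapping features. The ranks of pairs and the reads outside coding exons were added after their values were seen. The members and lists were chosen with earlier results of these data known. Python 3.11.15 with numpy 2.4.6, pandas 2.3.3, scipy 1.17.1, biopython 1.88 and matplotlib 3.10.9 was used. Alternatives covered scaling, filter, pseudocount, replicate block, variance trend, coding lines, a 2-fold rule, mappable length and each library left out.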

Additional observations from a re-analysis of the deposited data

How the results depend on the processing

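The 6 lower members stayed 6 with no filter, the larger pseudocount, no variance trend, coding lines, the sum of sn(o)RNA reads and each library left out, but became 10 with total reads, TMM or the median of ratios and 0 where a 2-fold change was also required. The 1 higher member became 0 with total reads, TMM, the median of ratios, no variance trend or the 2-fold rule, 2 with the sum of sn(o)RNA reads, and 0 to 2 with a library left out. Of ribosomal protein genes, 34 higher and 69 lower became 9 and 114 with total reads, 1 and 132 with TMM or the median of ratios, and 5 and 1 with the 2-fold rule. With no variance trend 20 were higher. Leaving out a library gave 26 to 40 higher and 63 to 78 lower.

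With total reads, TMM and the median of ratios, log2 ratios turned to -0.30, -0.97 and -1.01 for *rpl401*, and -0.36, -1.03 and -1.07 for *rpl802*. The shifts of these 2 genes follow from the scaling factor that all features of a library share. For *rps601* the log2 ratio was 0.025 with the sum of sn(o)RNA reads, and ranged from -0.13 without *exo2*Δ replicate 2 to 0.029 without *exo2*Δ replicate 1.

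With a library left out, the ratio changes ranged from -0.29 to -0.10 for *rpl301*/*rpl302*, 0.49 to 0.58 for *rpl401*/*rpl402*, -1.16 to -1.06 for *rpl801*/*rpl802*, -0.54 to -0.45 for *rps001*/*rps002* and 0.86 to 0.93 for *rps601*/*rps602*. With 1 library left in a group, that library is assumed to vary like the others. Coding lines, the pseudocount and a variance trend (added after seeing the data, in place of the planned fit without one, which is the one reported) kept these 5 calls.

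Log2 level ratios in WT moved with coding lines to 0.90 for *rpl301*/*rpl302* (from 1.13), -2.38 for *rpl401*/*rpl402* (from -2.52), 1.35 for *rpl801*/*rpl802* (from 1.46), -0.36 for *rps001*/*rps002* (from -0.61) and 0.13 for *rps601*/*rps602* (from -0.51, reversed). Reads that touch both exons of *rps001* enter both of its coding lines, which raises its coding density. With the share of unique windows, taken over the shorter ASM294v3 genes, the level ratios were 1.53 for *rpl301*/*rpl302* and 1.35 for *rpl801*/*rpl802*. Without 1 WT library they ranged from 1.11 to 1.14, -2.57 to -2.48, 1.43 to 1.49, -0.65 to -0.56 and -0.54 to -0.48 in this order.

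The replicate numbers are shared by both genotypes, but no label says that a number marks a shared batch. Deviations of same-numbered libraries correlated at 0.283 over 5447 features with at least 100 reads. With the replicate number as a block, 7888 features were called in place of 7808 and 55 pairs in place of 56, and the members stayed at 1 higher and 6 lower. The *rpl301*/*rpl302* change of -0.19 then had an adjusted p of 0.0932 by limma. The block changed no other call of the members.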
